A study of Mus musculus with 8 samples.

Results

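Long-chain acyl-CoA synthetases are the enzymes encoded by Acsl1, Acsl3, Acsl4, Acsl5 and Acsl6, and the open chromatin regions around these 5 genes were examined in fasted mouse liver. A region was assigned to the family when its nearest protein-coding gene, measured to the gene's span and within 100 kb, was one of the 5. By this rule 32 of the 49587 consensus regions belonged to the family: 19 to Acsl1, 5 to Acsl4, 4 to Acsl3, 3 to Acsl5 and 1 to Acsl6. Of the 32 regions, 16 overlapped a gene's span, 4 of them at the gene's 5′ end. Both Acsl3 regions nearest its 5′ end were tied with Utp14b, whose span begins at the same place. The region nearest to the limit on the inside lay 99144 bp from Acsl4 and was called in 3 libraries. The nearest on the outside lay 125930 and 130324 bp from Acsl4 and were called in 1 and 5 libraries.

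Livers of 9-week-old male C57BL/6 mice were profiled after a 24 h fast with ATAC-seq, which marks accessible DNA by transposase insertion. The labels give 4 genotypes with 2 libraries each: WT (wild type), Cpt2 L-/- (called Cpt2 knockout here, the liver knockout of the inner-membrane carnitine palmitoyltransferase, which lets mitochondria burn long-chain fatty acids), Ppara -/- (Ppara knockout, which lacks a nuclear receptor activated by fatty acids) and Cpt2 L-/- ; Ppara -/- (double knockout). All 4 genotypes were fasted, so no fed liver was compared. The promoter that drives deletion of Cpt2, the exons removed and whether animals were pooled are not given in the sources used here. Wild type and Cpt2 knockout livers carry Ppara and are called Ppara-intact (4 libraries), while Ppara knockout and double knockout livers are called Ppara-null (4 libraries).

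These synthetases join a long-chain fatty acid to coenzyme A, the step that traps the fatty acid in the cell and admits it to oxidation or to triglyceride and phospholipid synthesis. ACSL1 is the main isoform of hepatocytes and its gene is a known target of PPARα, the receptor that drives fatty acid oxidation in fasting. ACSL5 lies on mitochondria and endoplasmic reticulum, ACSL3 is found on lipid droplets, ACSL4 prefers arachidonic acid, and ACSL6 is known chiefly from brain.

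The RefSeq starts that fell in an accessible region differed in sequence between the main and the internal start of Acsl1, so both are shown with those of Acsl3 and Acsl4. Each line is the 250 bases before the start, 5′ to 3′ on the gene's strand, from RefSeq (GRCm38.p6, which is the mm10 assembly), with each CpG dinucleotide in capitals. The main start of Acsl1 (chr8:46470787-46471036, plus strand) lay in a region called in all 8 libraries, and the internal start (chr8:46490716-46490965, plus strand) in a region called in the 4 Ppara-intact libraries alone. The starts of Acsl3 (chr1:78657575-78657824, plus strand) and Acsl4 (chrX:142390536-142390785, minus strand) lay in regions called in all 8 libraries.
Acsl1 main start: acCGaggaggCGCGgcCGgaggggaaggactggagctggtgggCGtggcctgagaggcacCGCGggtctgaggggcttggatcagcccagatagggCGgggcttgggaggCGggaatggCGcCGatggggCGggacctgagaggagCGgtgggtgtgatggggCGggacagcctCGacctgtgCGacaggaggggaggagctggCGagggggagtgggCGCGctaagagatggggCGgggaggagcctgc
Acsl1 internal start: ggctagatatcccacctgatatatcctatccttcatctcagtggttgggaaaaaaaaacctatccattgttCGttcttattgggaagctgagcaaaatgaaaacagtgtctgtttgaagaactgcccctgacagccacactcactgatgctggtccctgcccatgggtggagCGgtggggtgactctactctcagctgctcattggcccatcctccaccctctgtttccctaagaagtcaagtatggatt
Acsl3 start: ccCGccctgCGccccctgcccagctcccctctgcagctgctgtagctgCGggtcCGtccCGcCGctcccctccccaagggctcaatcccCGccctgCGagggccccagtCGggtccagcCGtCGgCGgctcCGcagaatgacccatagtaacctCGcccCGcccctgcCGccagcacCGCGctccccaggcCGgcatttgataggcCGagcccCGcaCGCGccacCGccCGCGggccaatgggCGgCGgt
Acsl4 start: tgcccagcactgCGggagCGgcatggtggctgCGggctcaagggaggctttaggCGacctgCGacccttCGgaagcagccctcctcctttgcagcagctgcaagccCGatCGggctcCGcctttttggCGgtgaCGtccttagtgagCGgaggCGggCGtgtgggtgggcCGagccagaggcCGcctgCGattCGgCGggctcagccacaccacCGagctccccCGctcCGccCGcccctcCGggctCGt

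The main Acsl1 start held 20 CpG dinucleotides in these 250 bases, the Acsl3 start 28 and the Acsl4 start 25, whereas the internal Acsl1 start held 2. Over the 300-base windows that also take the 50 bases after the start, the main Acsl1 window held 30 CpG at 74.0% G and C, and the internal one 4 CpG at 50%. The median of all 32851 mouse promoter windows was 7 CpG at 52.7% G and C, so the main start ranked at the 88.3 percentile of CpG number and the internal start at the 31.4 percentile. Windows that overlapped a region called in all 8 libraries had a median of 24 CpG (7062 windows), and those that overlapped a region called in the Ppara-intact libraries alone had a median of 20 (538 windows). The internal Acsl1 start was therefore poorer in CpG than the median of either class.

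Nuclear receptors of the PPAR type bind pairs of the motif AGGTCA, 1 base apart and in the same direction (DR1). AGGTCA was searched on both strands of the 300-base windows, and it was found in none of the windows of Acsl1, Acsl3, Acsl4 and Acsl5, and it occurred 2 times in 1 of the 3 windows of Acsl6. Of all promoter windows, 16.3% held it. No member's window held DR1 with at most 2 mismatches in its 12 fixed letters, a match that 3.86% of all windows contained (0.0396% held it exactly). The best DR1 alignment had 5 mismatches at the main Acsl1 start and 4 at the internal start. These windows leave out the distal regions described below, whose sequence was not used here.

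As for the targeted genes, 2 to 3 of 3 regions within 1 kb of Cpt2 were called in the Cpt2 knockouts, 2 of 3 in wild type and 1 of 3 in each Ppara knockout and double knockout library, and 8 to 9 of 10 regions of Ppara were called with Ppara intact and 2 to 6 of 10 without it. Such calls do not check the labels, since the deleted exons are not given. Library depth is not given as a read total. Lists of Ppara-intact libraries held 28733 to 39296 peaks and those of Ppara-null libraries 18132 to 22715, and the median deposited fold per list was 6.56 to 7.46 with Ppara and 5.65 to 6.08 without it. Peak names carried the numbers 441, 443, 446 and 4717 where Ppara was intact, and 6831 to 6834 where it was absent. The labels do not say what it stands for, and any batch it may mark cannot be told apart from Ppara status. A region at a gene's end was called for 8 of 8 hepatocyte markers in each Ppara-intact library and 7 to 8 of 8 in the Ppara-null ones. None of the 5 macrophage markers had a consensus region there, so none could be called in any library. Stellate cell markers were called for 1 to 3 of 5 in Ppara-intact and 0 of 5 in Ppara-null libraries, cholangiocyte markers for 2 of 4 against 0 to 1, lymphocyte markers for 1 of 3 against 0 to 1, and sinusoidal endothelial markers for 1 of 5 against 0 to 1. Of these markers, 2 stellate, 2 cholangiocyte, 2 lymphocyte and 4 sinusoidal endothelial ones had no such region and could not be called. The part of these cell types in the results below was not tested.

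Fewer of the family's regions were called in libraries without Ppara. Wild type libraries called 21 and 24 of the 32 regions and Cpt2 knockout libraries 27 and 27, against 10 and 13 in Ppara knockout and 14 and 12 in double knockout. The 2 sets of libraries did not overlap. As a share of the family this was 65.6% to 84.4% with Ppara and 31.2% to 43.8% without it, beside 56.9% to 77.7% and 35.5% to 44.5% of all consensus regions. Over all regions, too, the Ppara-null libraries called fewer. When each library was limited to its 18132 strongest peaks by −log10 p, called equal-number lists here, the family had 15, 15, 16 and 16 regions in Ppara-intact and 10, 13, 14 and 12 in Ppara-null libraries. Of all regions these lists called 36.3% to 36.4% and 35.3% to 36.0%.

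**Figure D1:**
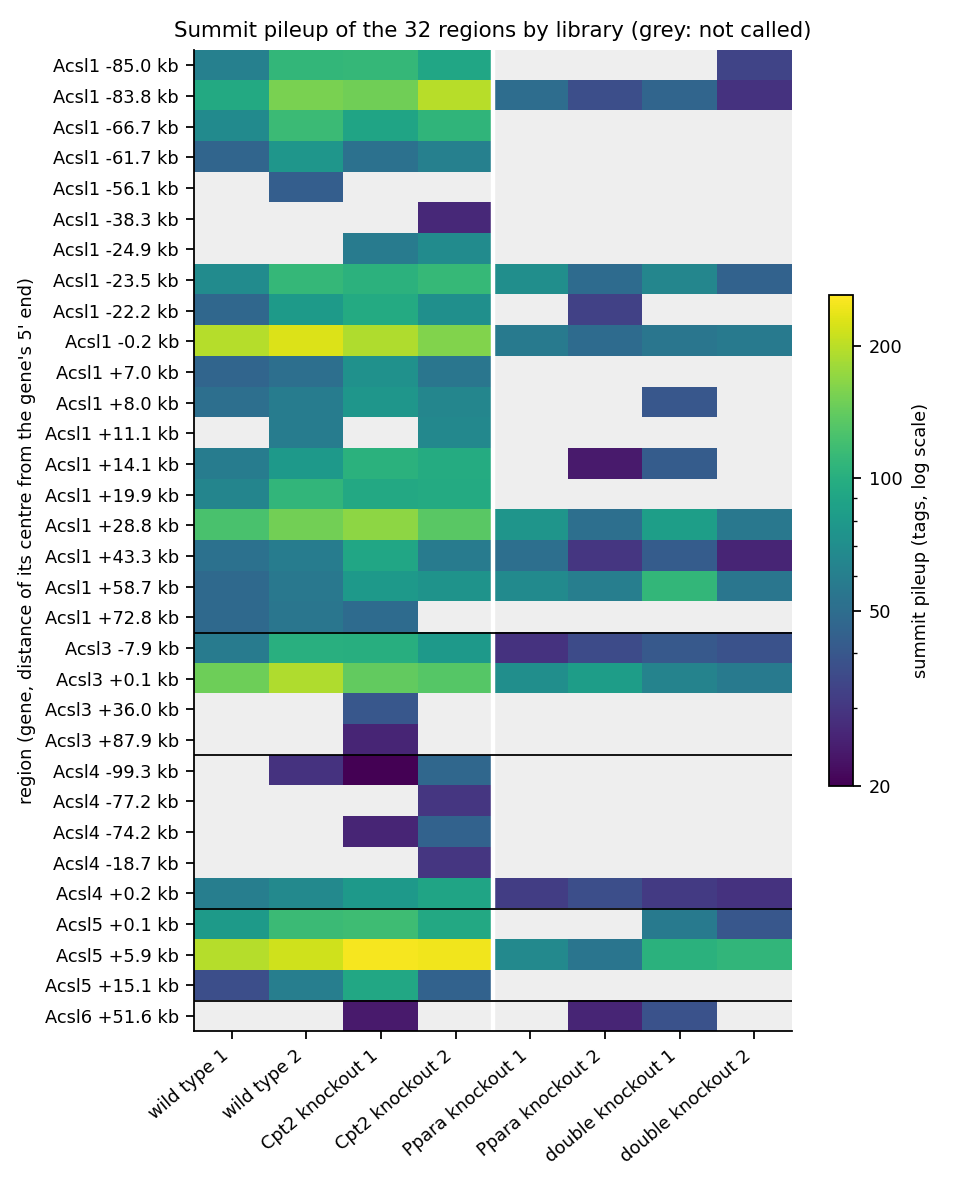
Summit pileup (tags, log colour scale) of the 32 regions in rows, named by gene and by the distance of the region's centre from the gene's 5′ end, in the 8 libraries in columns, with grey where no peak was called. The white line parts the 4 Ppara-intact from the 4 Ppara-null libraries, which called 21 to 27 and 10 to 14 regions.

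Regions below are named by the distance of their centre from the gene's 5′ end, negative when upstream. The value given for a region in a library is the pileup at the summit of its strongest peak, in tags, solved from the fold and −log10 p that the authors deposited, and the local background is the number of tags expected there from the surrounding DNA. All 8 libraries had the same lowest background, 4.097 tags, and the lowest pileup called against it was 18 tags in one wild type library and 19 in the other 7. Against a higher background more tags were needed for a call. In double knockout replicate 2, a peak of 30 tags against a background of 8.26 had a −log10 p of 8.95, near that list's lowest of 7.77. An absent call therefore means a pileup under the calling limit at that place, not closed chromatin. In bulk liver, fewer cells with an open region and less opening per cell cannot be told apart.

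In 5 regions (15.6% of the 32) a peak was called in all 4 Ppara-intact and in no Ppara-null library, and 6.82% of all 49587 regions showed that pattern. They were 4 regions of Acsl1 and 1 of Acsl5. The opposite pattern, calls in all Ppara-null libraries alone, was seen at 0 of the 32 regions and at 0.0686% of all regions. With equal-number lists the first pattern held at 2 of the 32 regions (0.811% of all regions), both near Acsl1, and the opposite pattern at 1 (0.512% of all regions), also near Acsl1. By an exact permutation test over the 70 orders of the labels, two-sided, each of the 5 separated regions had p = 0.0286, the smallest this design allows, with an adjusted p of 0.415 after Benjamini-Hochberg correction over all 49587 regions. No region in the genome passed an adjusted 0.05 by that exact test, and 3418 regions had an unadjusted p at or under 0.05. The labels do not say that replicates came from separate animals, so such p-values measure only the spread between these libraries.

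Peaks in all 8 libraries were found at 10 of the 32 regions (31.2%), beside 22.7% of all regions. These were 6 regions of Acsl1, 2 of Acsl3, and 1 each of Acsl4 and Acsl5. A further 6 regions (18.8%) were called in 1 library alone, beside 23.0% of all regions. They were 2 each near Acsl1, Acsl3 and Acsl4, and each was called in a Ppara-intact library. The Ppara-intact lists held more peaks, and the same split was not counted over all regions.

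Acsl1 (chr8:46471037-46536051, plus strand) had the most regions of the family. Of its 19 regions, 14 were called in all 4 Ppara-intact libraries, over 144.2 kb, as were 48.5% of all regions. Its regions were called in 15, 17, 16 and 17 cases in the Ppara-intact libraries and in 6, 8, 8 and 7 in the Ppara-null ones. Of all regions, these libraries called 56.9% to 77.7% and 35.5% to 44.5%. The Ppara-null libraries together called 10 of the 19, and 57.7% of all regions were called in at least 1 of them.

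**Figure D2:**
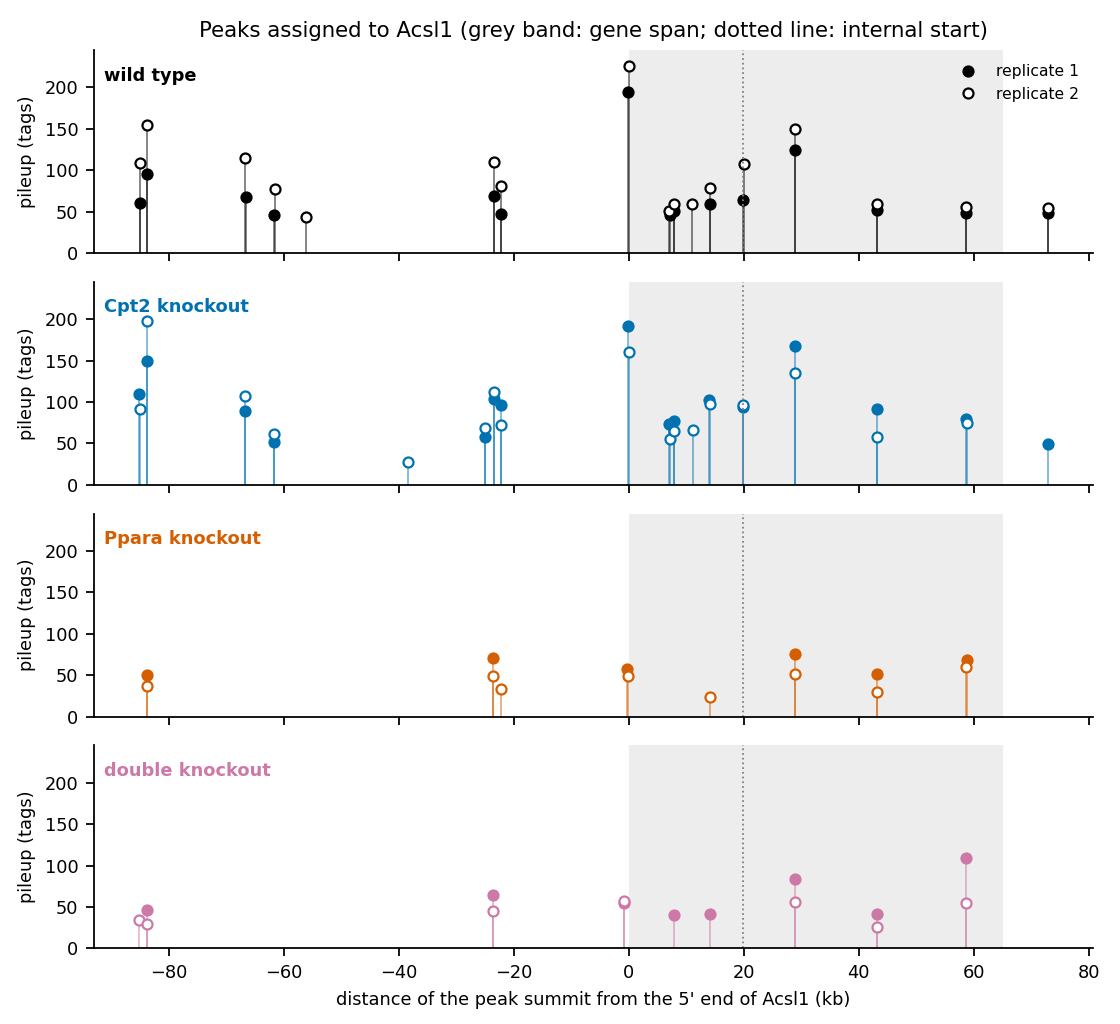
Summit pileup (tags) of the strongest peak per library in each Acsl1 region, against the summit's distance from the gene's 5′ end (kb), in 1 panel per genotype. Filled and open circles mark replicates 1 and 2, a grey band the gene span and a dotted line the internal start at 19.9 kb. The weaker peaks of double knockout replicate 2 at the 5′ end are not drawn. The 5′ end reached 160 to 226 tags with Ppara and 49 to 57 without it, and the internal start had a peak in the Ppara-intact panels alone.

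At the 5′ end of Acsl1 (−0.2 kb, chr8:46470079-46471656) the pileup was 195 and 226 tags in wild type and 192 and 160 in Cpt2 knockout libraries. It was 57 and 49 tags in Ppara knockout and 55 and 57 in double knockout libraries. At its own strongest summit, every Ppara-null library lay below every Ppara-intact one. On that measure the double knockouts were at the level of the Ppara knockouts, though the summits did not lie at the same place (next paragraph). The difference of the means on the log2 scale was −1.82 (SD 0.204 among Ppara-intact and 0.103 among Ppara-null libraries, n = 4 each), a 3.53-fold lower pileup. The median over the 11258 regions called in all 8 libraries was −1.07 (2.1-fold lower), and the difference at the Acsl1 5′ end ranked at the 0.79 percentile of these. The deposited fold, which divides by the local background, was 9.21, 8.38, 7.96 and 7.54 in Ppara-intact and 5.54, 5.35, 6.32 and 6.62 in Ppara-null libraries. The log2 difference in fold of −0.475 ranked at the 63.0 percentile, and the local background was lower as well (given below). The SD among libraries was smaller than the difference on both scales.

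The place of the summit at the Acsl1 5′ end also differed. Its distance from the start was −50 and 6 bp in wild type, −39 and 114 bp in Cpt2 knockout, −363 and −75 bp in Ppara knockout, and −749 and −747 bp in double knockout libraries. All 4 Ppara-null summits lay further upstream than the 4 Ppara-intact ones, with −75 and −50 bp as the nearest values of the 2 sides. Peaks there were 1267 to 1495 bp wide in Ppara-intact libraries and 1095 to 1168 bp in 3 of the Ppara-null ones. In double knockout replicate 2 the region was called as 3 separate peaks, with pileups of 57 tags at −747 bp, 43 tags at 458 bp and 30 tags at −40 bp. No error is given for the position of a summit. How often summits or peak widths separate by Ppara status over all regions was not counted.

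The internal start of Acsl1 lies 19.9 kb into the gene, and the region over it (chr8:46490738-46491174) had 64 and 108 tags in wild type and 94 and 96 in Cpt2 knockout libraries. No peak was called there in any of the 4 Ppara-null libraries. The summits lay 19927 to 19964 bp from the gene's 5′ end, within a span of 37 bp, next to the RefSeq start at 46490966. Local background was 9.24 to 14.2 tags and the deposited fold 6.24 to 7.33. The region kept this pattern with equal-number lists. Its promoter is the CpG-poor one of the Acsl1 pair shown above.

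Upstream of Acsl1, the region at −66.7 kb (chr8:46404114-46404589) had 68 and 115 tags in wild type and 89 and 107 in Cpt2 knockout libraries, with no call without Ppara. Its deposited folds of 8.16, 12.8, 10.4 and 11.9 were the highest of the 4 Acsl1 regions with this pattern. It too kept the pattern with equal-number lists. The neighbouring region at −61.7 kb (chr8:46409000-46409658) had 46, 77, 52 and 61 tags in the Ppara-intact libraries, and 3 of the 4 calls were kept with equal-number lists. Inside the gene, the region at 7.0 kb (chr8:46477804-46478362) had 46, 51, 73 and 55 tags. Its folds of 3.46 to 4.25 were low, and with equal-number lists 0 of these 4 calls were kept.

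A pair of neighbouring regions stood at the upstream end of the Acsl1 group. At −83.8 kb (chr8:46386973-46387534) the pileup was 95 and 155 tags in wild type, 149 and 198 in Cpt2 knockout, 50 and 37 in Ppara knockout, and 46 and 29 in double knockout libraries. Every Ppara-null value was below every Ppara-intact value. The mean log2 pileup differed by −1.86 (SD 0.442 and 0.352), a 3.64-fold difference at the 0.48 percentile of the 11258 regions. In deposited fold the log2 difference was −0.72, at the 24.8 percentile. Its neighbour at −85.0 kb (chr8:46385780-46386195) had 61, 109, 110 and 91 tags in the Ppara-intact libraries and 34 tags in double knockout replicate 2, and was not called in the other 3. The nearest gene other than Acsl1 was Helt, 92224 bp from the first and 91031 bp from the second.

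Other Acsl1 regions kept their calls in some Ppara-null libraries. At −22.2 kb (chr8:46448664-46449062) there were 47, 81, 96 and 72 tags in Ppara-intact libraries and 33 in Ppara knockout replicate 2. At 8.0 kb (chr8:46478860-46479122) there were 51, 59, 77 and 65 tags and 40 in double knockout replicate 1. The region at 14.1 kb (chr8:46484924-46485363) had 59, 79, 103 and 97 tags in Ppara-intact libraries, 24 in Ppara knockout replicate 2 and 42 in double knockout replicate 1. In each of these 3 regions the called Ppara-null pileups lay below all 4 Ppara-intact pileups. In deposited fold this did not hold throughout: at 8.0 kb the double knockout value was 5.32, above the Ppara-intact range of 3.93 to 4.27, and at 14.1 kb it was 6.07, within the range of 5.52 to 6.18.

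The difference was not of 1 size along Acsl1. At −23.5 kb (chr8:46447318-46447741) the pileup was 69 and 110 tags in wild type, 104 and 112 in Cpt2 knockout, 71 and 49 in Ppara knockout, and 65 and 45 in double knockout libraries. The groups overlapped there, as Ppara knockout replicate 1 was above wild type replicate 1, and the difference of −0.78 on the log2 scale was smaller in size than the median of all regions. At 28.8 kb (chr8:46499429-46500223) the values were 125, 150, 168 and 135 tags with Ppara and 76, 51, 84 and 56 without it, a log2 difference of −1.14 at the 42.0 percentile. At 43.3 kb (chr8:46514058-46514614) they were 52, 59, 91 and 58 tags with Ppara and 51, 30, 42 and 26 without it. The log2 difference of −0.82 ranked at the 75.8 percentile, and wild type replicate 1 and Ppara knockout replicate 1 differed by 1 tag. In deposited fold the log2 differences at −23.5, 28.8 and 43.3 kb were −0.164, 0.084 and 0.323, at the 93.09, 98.61 and 99.59 percentiles. Folds with and without Ppara overlapped at each of these regions.

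The region at 58.7 kb (chr8:46529488-46530019), in the 3′ part of Acsl1, differed in direction of pileup from the rest among the 10 regions called in all 8 libraries. In deposited fold it was not alone, since the means at 28.8 and 43.3 kb were also higher without Ppara (0.084 and 0.323 on the log2 scale), with overlapping groups. Its pileup was 48 and 56 tags in wild type, 80 and 75 in Cpt2 knockout, 68 and 60 in Ppara knockout, and 109 and 55 in double knockout libraries. The groups overlapped, and the mean log2 pileup was 0.15 higher without Ppara, at the 99.0 percentile of the 11258 regions. Without double knockout replicate 1 the difference was −0.061. The deposited folds were 4.25, 4.01, 5.64 and 4.97 in Ppara-intact and 7.75, 7.35, 12.1 and 7.73 in Ppara-null libraries. Every Ppara-null fold was above every Ppara-intact one, a 1.83-fold difference (0.87 on the log2 scale, SD 0.223 and 0.337) at the 99.99 percentile. With equal-number lists its −log10 p values of 17.2, 18.3, 35.3 and 29.6 fell under the limits of the Ppara-intact lists (21.8 to 37.9), while those of the Ppara-null libraries (33.0 to 81.9) stayed above theirs (7.8 to 14.6). This is the 1 region counted above as called in Ppara-null libraries alone under equal-number lists.

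Acsl5 (chr19:55251861-55296628, plus strand) had 3 regions, all inside the gene. Its strongest, at 5.9 kb (chr19:55257471-55258033), had 196 and 216 tags in wild type, 251 and 247 in Cpt2 knockout, 67 and 54 in Ppara knockout, and 103 and 108 in double knockout libraries. In pileup the 4 genotypes did not overlap with one another, and ran from Ppara knockout through double knockout and wild type to Cpt2 knockout. In deposited fold the Cpt2 knockouts (13.6 and 13.9) instead lay below the wild types (14.2 and 14.8), and the double knockouts (11.2 and 11.5) above the Ppara knockouts (8.44 and 7.05). How many of all regions show the pileup order was not counted. Both Cpt2 knockouts lay above both wild types in pileup at 17.4% of the 11258 regions. Both double knockouts lay above both Ppara knockouts at 23.3%, and limma (below) called neither difference at this region. The mean log2 pileup differed by −1.51 without Ppara (SD 0.169 and 0.486), a 2.84-fold difference at the 7.53 percentile of the 11258 regions, and the log2 difference in fold of −0.60 was at the 43.8 percentile. Summits lay within 31 bp of each other in the Ppara-null and within 7 bp in the Ppara-intact libraries.

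**Figure D3:**
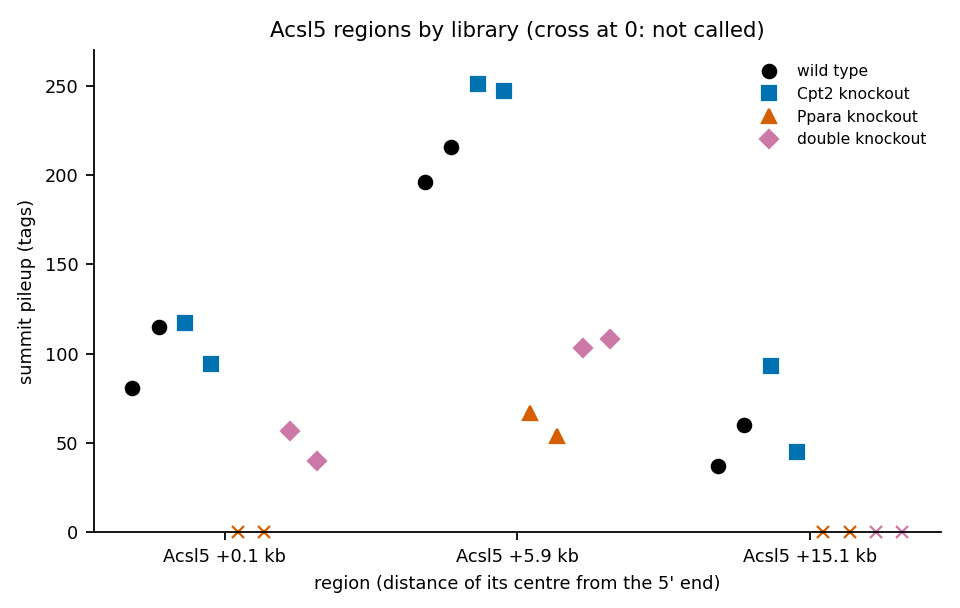
Summit pileup (tags, linear axis from 0) of the 3 Acsl5 regions in each library, with 1 symbol per genotype and crosses at 0 where no peak was called. At 5.9 kb the double knockouts (103 and 108 tags) lay above the Ppara knockouts (67 and 54), and at the 5′ end (0.1 kb) the Ppara knockouts had no call.

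At the 5′ end of Acsl5 (0.1 kb, chr19:55251700-55252143) the pileup was 81 and 115 tags in wild type and 117 and 94 in Cpt2 knockout libraries. Double knockout libraries had 57 and 40 tags, and neither Ppara knockout library had a call. Calls in all libraries but the Ppara knockouts were found at 1 of the 32 regions and at 1.3% of all regions. The annotated RefSeq start used for promoter windows lies 1.5 kb further in, at 55253369, and no region overlapped that window. The third region, at 15.1 kb (chr19:55266810-55267210), had 37 and 60 tags in wild type, 93 and 45 in Cpt2 knockout and no call in the Ppara-null libraries. With equal-number lists 2 of its 4 calls were kept.

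Acsl3 (chr1:78657825-78707743, plus strand) was called at its 5′ end in all 8 libraries. At 0.1 kb (chr1:78657524-78658237) there were 147 and 192 tags in wild type, 141 and 132 in Cpt2 knockout, 71 and 83 in Ppara knockout, and 63 and 57 in double knockout libraries. The Ppara-null values lay below the Ppara-intact ones, with a log2 difference of −1.16 (SD 0.237 and 0.233), near the median of all regions at the 39.5 percentile (64.0 in deposited fold). The region at −7.9 kb (chr1:78649658-78650103) had 58, 101, 100 and 79 tags with Ppara and 29, 36, 41 and 38 without it, a log2 difference of −1.21 at the 33.8 percentile. In deposited fold the difference was −0.86, at the 10.7 percentile. The other 2 Acsl3 regions were each called in Cpt2 knockout replicate 1 alone, with 40 and 26 tags.

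Acsl4 (chrX:142317993-142390802, minus strand) had 1 region called throughout, at its 5′ end (0.2 kb, chrX:142390235-142390942). Its pileup was 60 and 67 tags in wild type, 79 and 89 in Cpt2 knockout, 32 and 37 in Ppara knockout, and 31 and 29 in double knockout libraries. The log2 difference of −1.18 (SD 0.252 and 0.148) without Ppara ranked at the 36.6 percentile, and that of −0.93 in deposited fold at the 6.08 percentile. The other 4 Acsl4 regions lay upstream, had 20 to 47 tags, and were called in 1 to 3 Ppara-intact and in no Ppara-null library. Of all regions, 57.7% were called in at least 1 Ppara-null library, and the Ppara-intact lists held more peaks. Acsl6 (chr11:54303805-54364756, plus strand) had 1 region, at 51.6 kb inside the gene (chr11:54355249-54355558), with 24 tags in Cpt2 knockout replicate 1, 26 in Ppara knockout replicate 2 and 38 in double knockout replicate 1. No region overlapped any of its 3 RefSeq promoter windows.

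**Figure D4:**
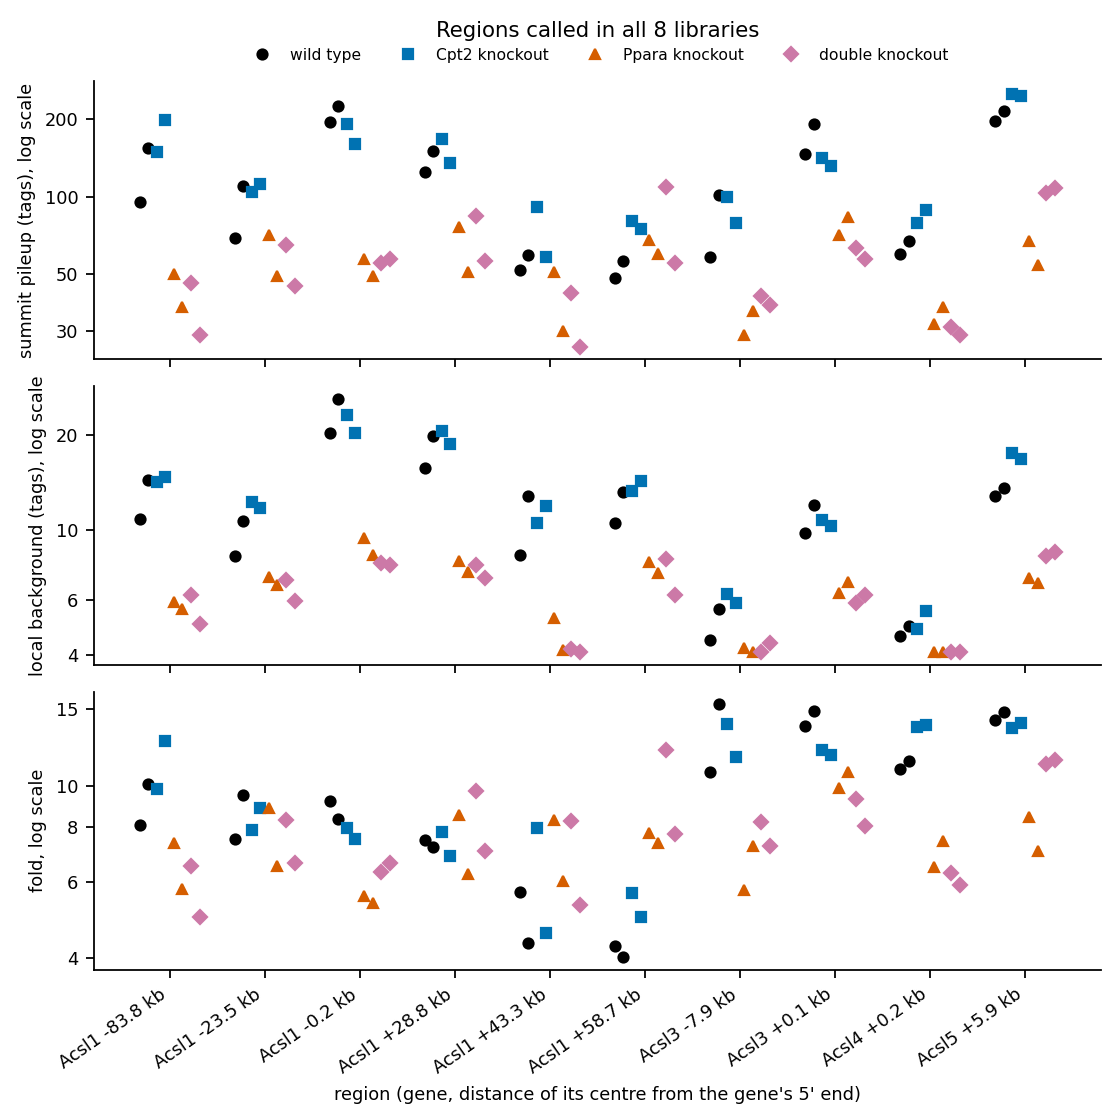
Summit pileup (top, tags), local background (middle, tags) and deposited fold (bottom), all on log axes, of the 10 family regions called in all 8 libraries, with 1 point per library. Ppara-null points (triangles and diamonds) lay below all Ppara-intact points in pileup at 8 of the 10 regions, in background at all 10 and in fold at 6, and above them in fold at Acsl1 58.7 kb.

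Among the 10 family regions called in all 8 libraries, the pileup was lower in every Ppara-null than in every Ppara-intact library at 8, a pattern seen at 79.3% of the 11258 regions. At 0 of the 10 regions it was higher in every Ppara-null library (0.293% of all). The median log2 difference of the 10 was −1.17 (2.25-fold lower) beside −1.07 for all regions, of which 5% to 95% spanned −1.57 to −0.36. In deposited fold, 6 of the 10 were lower in every Ppara-null library (60.0% of the 11258) and 1, the region at 58.7 kb of Acsl1, was higher (0.222%). The difference in pileup of the family as a whole was thus near that of all regions, and the largest of the 10 were those at −83.8 kb and at the 5′ end of Acsl1. In deposited fold the largest falls were instead at Acsl4 0.2 kb and Acsl3 −7.9 kb.

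The pileups of the 11258 regions called in all 8 libraries were also fitted by genotype with limma on the log2 scale. These regions were chosen for having a call in every library, so the fit says nothing of the other 22 family regions. At a Benjamini-Hochberg adjusted p of 0.05, the pileup without Ppara was lower at 9 of the 10 family regions (93.0% of all) and higher at 0 (0.426%). The exception was Acsl1 at 58.7 kb (0.15, SE 0.23, adjusted p = 0.522 by limma). Relative to each library's median, 2 of the 10 were lower (4.21% of all) and 1 was higher (10.4%). The lower pair was Acsl1 at −83.8 kb (−0.77, SE 0.176, adjusted p = 0.00466 by limma) and at the 5′ end (−0.73, SE 0.16, adjusted p = 0.00358). The higher region was Acsl1 at 58.7 kb (1.24, SE 0.174, adjusted p = 4.11e-05 by limma). Acsl5 at 5.9 kb, at −0.41 (SE 0.164), missed the threshold with a limma adjusted p of 0.0928. In deposited fold 6 were lower (79.5%) and 1, again at 58.7 kb, was higher (0.346%). The region at 58.7 kb thus passed as higher on the scales that divide by the library median or the local background, and not in pileup itself.

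The local background was lower by a larger factor at several Acsl1 regions than at most regions. Background was lower in every Ppara-null than in every Ppara-intact library at 10 of the 10 family regions, beside 70.5% of the 11258 regions. At Acsl4 the 4 Ppara-null values were at the lowest background of a library, 4.097 tags. No background lay under that value, so regions with a low background had less room to fall. The percentiles below do not account for this. At the Acsl1 5′ end it was 20.3, 26.1, 23.2 and 20.4 tags in Ppara-intact and 9.46, 8.34, 7.86 and 7.76 in Ppara-null libraries. That difference of −1.43 on the log2 scale (2.69-fold lower) ranked at the 0.04 percentile of the 11258 regions. The differences at 28.8, 43.3 and −83.8 kb were −1.31, −1.29 and −1.25, at the 0.21, 0.26 and 0.33 percentiles. The median over all regions was −0.54 (1.45-fold lower), and the SD among the 4 libraries of a side was at most 0.273 at these 4 regions. The 4 regions lie in the same locus and were not treated as independent. Over the strongest peak per library in each Acsl1 region, the background was 4.1 to 26.1 tags (median 12.9, 65 peaks) with Ppara and 4.1 to 9.46 (median 6.7, 29 peaks) without it.

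**Figure D5:**
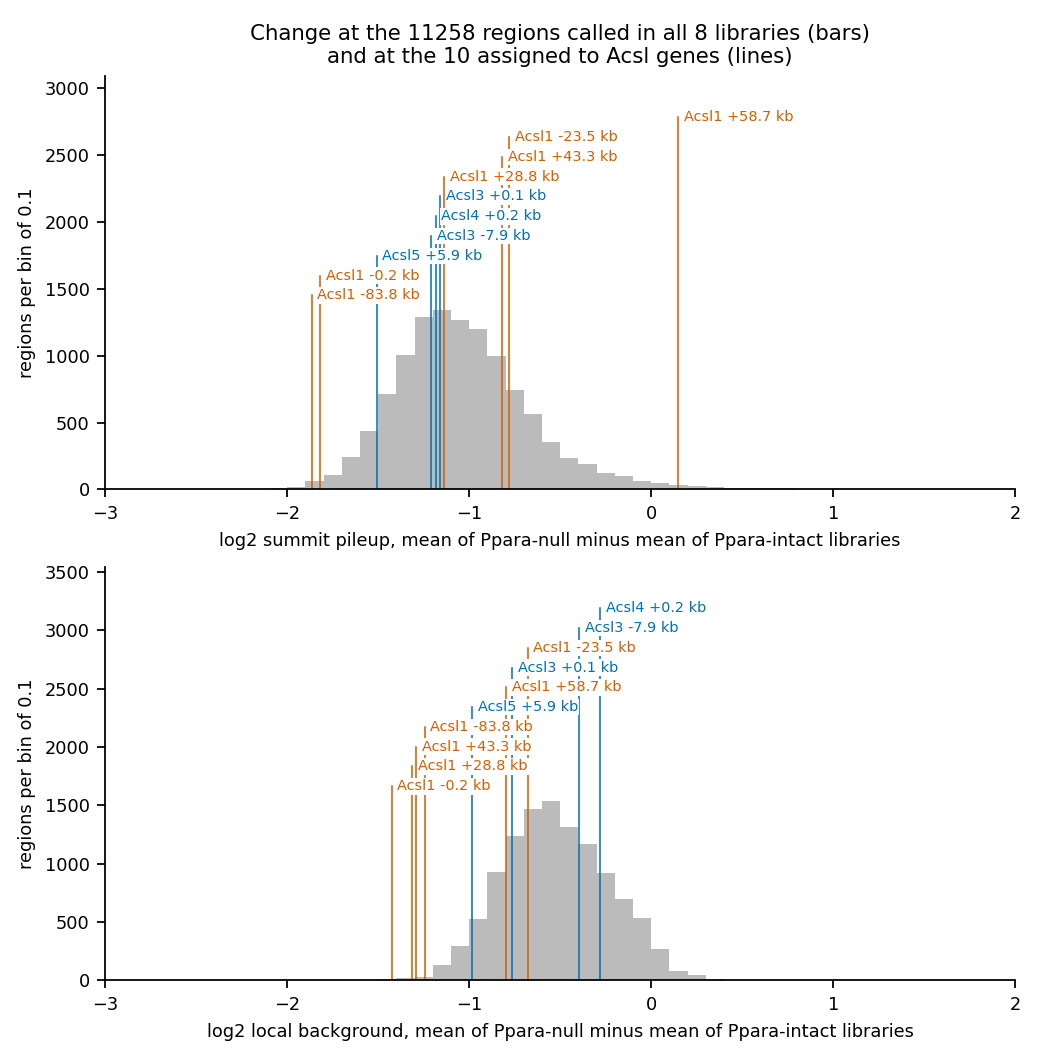
Histograms of the difference in log2 summit pileup (top) and log2 local background (bottom), mean of Ppara-null minus mean of Ppara-intact libraries, over the 11258 regions called in all 8 libraries, with lines at the 10 family regions (orange for Acsl1, blue for the others; line height has no meaning). In pileup the lines ran from −1.86 at Acsl1 −83.8 kb to 0.15 at Acsl1 58.7 kb, and in background the 4 lowest, all of Acsl1, ran from −1.43 to −1.25.

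The pairs of genotypes that differ in 1 gene are given side by side, and each genotype serves in more than one pair. With 2 libraries against 2, an exact permutation test of the calls cannot pass 0.05, so the calls were not tested, and a region was counted when both libraries of one genotype and neither of the other called it. Between wild type and Ppara knockout, 9 of the 32 regions were called in wild type alone (13.6% of all regions) and 0 in Ppara knockout alone (0.46%). The 9 were Acsl5 at 0.1 and 15.1 kb and Acsl1 at −85.0, −66.7, −61.7, 7.0, 8.0, 19.9 and 72.8 kb. Between Cpt2 knockout and double knockout, 9 were called in Cpt2 knockout alone (20.4% of all regions) and 0 in double knockout alone (0.597%). Those were Acsl5 at 15.1 kb, Acsl1 at −66.7, −61.7, −24.9, −22.2, 7.0 and 19.9 kb, and Acsl4 at −74.2 and −99.3 kb.

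Between wild type and Cpt2 knockout, 2 of the 32 regions were called in Cpt2 knockout alone (3.63% of all regions) and 0 in wild type alone (0.512%). They were Acsl1 at −24.9 kb, with 58 and 69 tags in the Cpt2 knockouts, and Acsl4 at −74.2 kb, with 26 and 45. Between Ppara knockout and double knockout, 1 region, the 5′ end of Acsl5, was called in double knockout alone (2.33% of all regions) and 0 in Ppara knockout alone (1.45%). Among the 10 regions called in all 8 libraries, both Cpt2 knockouts lay above both wild types in pileup at 3 (17.4% of the 11258 regions): Acsl5 at 5.9 kb, Acsl4 at 0.2 kb and Acsl1 at 58.7 kb. Both double knockouts lay above both Ppara knockouts at 2 (23.3% of the 11258), at Acsl5 at 5.9 kb and Acsl3 at −7.9 kb. By limma on the 10 regions' log2 pileup, 7 were lower in Ppara knockout than in wild type (78.1% of the 11258) and 9 lower in double knockout than in Cpt2 knockout (86.3%). Between Cpt2 knockout and wild type limma called 0 of the 10 (0.00888% of all), and 0 had an unadjusted p under 0.05. Between double knockout and Ppara knockout limma called 0 of the 10 (0.32%), and 1, Acsl5 at 5.9 kb, had an unadjusted p under 0.05 (difference 0.81, SE 0.325, adjusted p = 0.374). The effects of Cpt2 loss with and without Ppara were compared by an interaction term in limma, which called 0 of the 10 (0.0% of all), with 0 at an unadjusted p under 0.05. Counts of 0 to 3 members do not set the family apart from all regions with respect to Cpt2.

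Other genes of acyl-CoA metabolism were measured in the same way. Of 19 other acyl-CoA synthetases (the medium-chain Acsm, short-chain Acss, bubblegum, Acsf, Aacs and very long-chain Slc27a genes), 15 had a region and together they had 57. Of these, 12 (21.1%) were called in all 8 libraries, 3 (5.26%) in the Ppara-intact libraries alone, and 0 in the Ppara-null libraries alone. All 3 belonged to Acss3, a mitochondrial short-chain synthetase. With equal-number lists these last counts were 1 and 1. Of 36 genes whose proteins use, carry or hydrolyse long-chain acyl-CoA, such as Cpt1a, Acadvl and Dgat2, 35 had a region. They had 213 regions, of which 37 (17.4%) were called in all 8 libraries, 22 (10.3%, in 18 genes) in the Ppara-intact libraries alone and 0 in the Ppara-null libraries alone. With equal-number lists these last counts were 2 and 1. The 5 of 32 regions (15.6%) of the long-chain synthetases stand beside these counts and the 6.82% of all regions, and the differences between lists were not tested.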

How the data were processed

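ATAC-seq peak lists from 8 libraries (4 genotypes, 2 each, grouped by the labels) were used. Per the submitters' processing notes, BWA, MACS2 2.1.0 and mm10 were used; read totals, duplicate handling and the transposase offset are not given in the sources used here. Per the file headers and peak names, the authors called peaks in each library separately. For each peak they deposited a score, a fold (ratio of summit pileup to local background) and −log10 p-values and q-values. A deposited table gave other values, the start and end positions of 49587 consensus regions, and no count per region, so calls were tested by the exact permutation test planned for that case. Pileup is known only where a peak was called. For the regions called in all 8 libraries log2 pileup was fitted by genotype with limma 3.58.1 (R 4.3.3). In log2 pileup its prior gave every region the same spread, so a region's own spread among libraries did not enter its p-value. Relative to the library median and in deposited fold the prior weighed less, and a region's own spread entered in part. This fit and its settings were added after seeing the data.

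Any peak sharing 1 bp or more with a region made it called, and each region was assigned to the nearest of 21900 RefSeq protein-coding genes (GRCm38.p6, matched by symbol for all 5 members) within 100 kb. Whole-number pileup and background were solved from the deposited fold and −log10 p-value (largest error 0.000166 over 150 member peaks), and the method was tested on simulated data. The lowest background scales with tag number times extension length and was the same in every library, so pileups were set side by side without scaling. They still vary with the share of tags in peaks, which is unknown. Alternatives were equal-number lists, a −log10 q of at least 20, 50% cover, a 10 kb limit, the replicate block, and leaving out each library. Chosen after seeing the data were every alternative for single regions, the deposited fold in place of pileup, and differences relative to the median of all regions.

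The text names regions separated by Ppara status, called in all 8 libraries, within 1 kb of a gene's end or with a member's highest mean −log10 p, and also, chosen after their values were seen, Acsl1 at −85.0, −22.2, 8.0 and 14.1 kb and those that differ between pairs of genotypes. The members and gene lists were chosen with earlier results of these data known. Python 3.11.15, NumPy 2.4.6, SciPy 1.17.1, pandas 2.3.3 and matplotlib 3.10.9 were used.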

Additional observations from a re-analysis of the deposited data

Results flagged for a closer look

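At the 5′ end of Acsl4 (0.2 kb) the difference between livers with and without Cpt2 ran in opposite directions with and without Ppara. The Cpt2 knockouts, at 79 and 89 tags (mean 84), lay above both wild types (60 and 67), whereas the double knockouts, at 31 and 29 tags, lay below both Ppara knockouts (32 and 37). The difference between these effects was −0.60 on the log2 scale (SE 0.46) and did not pass the test of the interaction by limma (adjusted p = 0.999), and the second gap is 1 tag at its narrowest. Both Cpt2 knockouts lay above both wild types in pileup at 17.4% of the 11258 regions called in all 8 libraries. How many of those regions show the second order, or both orders, was not counted, so the pattern is not shown to be particular to Acsl4.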

How the results depend on the processing

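With equal-number lists, regions called in the Ppara-intact libraries alone numbered 2 instead of 5, those in the Ppara-null libraries alone 1 instead of 0, those in wild type but not Ppara knockout 5 instead of 9 (1 in the opposite direction instead of 0), those in Cpt2 knockout but not double knockout 3 instead of 9 (1 in the opposite direction instead of 0), and those in Cpt2 knockout but not wild type 0 instead of 2. A −log10 q of at least 20 left 4 instead of 10 regions called in all 8 libraries, gave 1 instead of 0 in Ppara knockout but not wild type, 1 instead of 2 in Cpt2 knockout but not wild type and 0 instead of 1 in double knockout but not Ppara knockout. A limit of 10 kb gave 3 instead of 5 in the Ppara-intact libraries alone, 3 instead of 9 in Cpt2 knockout but not double knockout and 0 instead of 2 in Cpt2 knockout but not wild type. Requiring 50% cover moved none of these counts by more than 1.5 times.

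Leaving out each library in turn gave 5 to 6 regions in the Ppara-intact libraries alone, 9 to 12 in wild type but not Ppara knockout and 10 to 13 in Cpt2 knockout but not double knockout. It gave 2 to 5 in Cpt2 knockout but not wild type (5 without either Cpt2 knockout library) and 0 to 1 in the opposite direction (1 without Cpt2 knockout replicate 1 or wild type replicate 1). It gave 1 to 2 in double knockout but not Ppara knockout (2 without either double knockout library), and 0 to 1 in the opposite direction and in Ppara knockout but not wild type (1 without Ppara knockout replicate 1 in both). The causes were not tested.

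Of the 10 regions called in all 8 libraries, limma on pileup relative to the library median called 2 instead of 9 lower and 1 instead of 0 higher without Ppara, 1 instead of 7 lower in Ppara knockout than wild type, and 1 instead of 9 lower in double knockout than Cpt2 knockout. On deposited fold it called 1 instead of 0 higher without Ppara, 4 instead of 7 lower in Ppara knockout and 3 instead of 9 lower in double knockout. Leaving out a library, where a lone sample is assumed to vary like the other groups, gave 9 lower without Ppara in every case, 6 to 8 in Ppara knockout and 6 to 9 in double knockout. The replicate block changed none of these counts.

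With the replicate block, which permutes labels within the replicate number, the smallest exact permutation p of a region was 0.0556 instead of 0.0286. The labels do not say whether libraries with the same number belong together. Deviations of same-numbered libraries from their group means correlated at −0.0314 to 0.0255.

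Among single regions, the calls of Acsl1 at 8.0 kb, 3 more Ppara-intact than Ppara-null libraries, became −1 with equal-number lists. The log2 difference without Ppara at Acsl1 −23.5 kb was 0.29 relative to the median of all regions, that at 28.8 kb was 0.084 in deposited fold, and that at 43.3 kb was 0.323 in fold and 0.25 relative to the median. At 58.7 kb it ran from −0.061 without double knockout replicate 1 to 0.268 without double knockout replicate 2. In 79 of 80 values with a library left out, the value kept its direction and moved by less than 1 SD. Read totals are unknown, and at the lowest background a region under about 19 tags (18 in wild type replicate 1) was not called in any library.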
